A study of Mus musculus with 4 samples.

Results

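The genes described here carry the calcium signal that osteoclast precursors need beside RANKL: the ITAM receptors and adaptors, the kinases and phospholipases they switch on, the channels and pumps that move calcium, and calcineurin with its regulators and NFAT factors. They were chosen by symbol from a list of 36 genes, of which 35 were in the deposited table and all 35 were tested, out of 11781 genes tested and 12799 in the table. Camk4, a calmodulin-dependent kinase, was not analysed here.

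In osteoclast precursors, receptors such as OSCAR and TREM2 signal through the adaptors FcRγ and DAP12, whose ITAM motifs are phosphorylated by Src-family kinases and then recruit SYK. SYK and the TEC-family kinases, with the adaptor BLNK, activate phospholipase C gamma, which makes IP3. IP3 opens calcium stores, STIM proteins sense the emptied store and open ORAI channels, and calcium-bound calmodulin activates calcineurin, which dephosphorylates NFAT factors so that they enter the nucleus and drive osteoclast genes.

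Bone marrow-derived monocytes came from 12-week-old female mice, and non-adherent marrow cells were taken after 2 days of culture and expanded in 30 ng/mL M-CSF. All cells were then kept for 3 days in 30 ng/mL M-CSF with 50 ng/mL RANKL, the cytokine that induces osteoclasts, and poly(A) RNA was sequenced. Control cells were Piezo1fl/fl, with floxed Piezo1 and without a recombinase, and knockout cells were Csf1r-iCre;Piezo1fl/fl, with 2 libraries per genotype that the design text calls biological replicates. Csf1r, whose regulatory sequence drives the recombinase, encodes the M-CSF receptor of monocytes and macrophages. The controls lack the transgene, so its own effects and those of losing Piezo1, a stretch-activated cation channel, cannot be told apart.

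Read totals were 14122118 to 18897927 per library, and 1 read was worth 0.0544 to 0.0700 CPM, the unit of levels here, a gene's reads relative to a scaled library total. Piezo1 was at 430 and 384 CPM in the controls and at 61.0 and 56.2 CPM in the knockouts, 14.4% of the control mean. All 9 osteoclast markers and all 8 macrophage markers were in the table, summing to 59403 to 74840 CPM and 3329 to 4055 CPM per library, and of 8 B cell markers only Ebf1 was listed (4.94 to 6.9998 CPM). None of 7 T and NK cell markers was listed, 2 of 7 mast cell and basophil markers summed to 0.792 to 1.47 CPM, and 6 of 7 neutrophil markers to 35.4 to 67.8 CPM. The 13 stromal markers summed to 2174 and 2689 CPM in the controls and 1584 and 1437 CPM in the knockouts, and 9 of them were lower in both knockouts than in both controls, against 15.4% of all tested genes. A Tdtomato transcript, which the genotype labels do not mention, was at 0.520 and 6.02 CPM in the controls and 270 and 870 CPM in the knockouts. In bulk RNA, fewer cells of a type and less RNA per cell cannot be told apart.

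Of the 35 genes, 1 rose in the knockout libraries and none fell. The gene that rose was Rcan2, a regulator of calcineurin, which went from 10.99 ± 1.58 to 34.2 ± 4.003 CPM (SD, n = 2 each), 3.12-fold higher. The calls are from limma on log2(CPM + 0.5) with Benjamini-Hochberg adjustment over all tested genes, at an adjusted p under 0.05, and over the whole table this passed 19 genes, or 0.161% (0.0424% higher and 0.119% lower). edgeR's quasi-likelihood test and DESeq2, run on the recovered reads, each called 1 of the 35 as well, the same Rcan2, against 0.161% and 0.56% of all genes. At an unadjusted limma p under 0.05, 3 of the 35 passed, Rcan2 higher and Rcan1 and Nfatc2 lower, against 4.9% of all genes (1.35% higher and 3.55% lower). A log2 fold change of 0.5 or more in size was found for 2 of the 35, Rcan2 and Nfatc2, and for 4.27% of all genes. The 19 calls over the whole table became 7 when control 1 was left out, 8 when control 2 was, 76 when knockout 1 was and 61 when knockout 2 was, and no member other than Rcan2 was called in any of these.

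The median log2 fold change, knockout minus control, was 0.03 over the 35 genes and 0.0016 over all genes tested. It was positive in 22 and negative in 13, and in 50.5% of all genes. Without control 2 the median of the 35 was −0.0085. Of the 35 genes, 11 had groups that did not overlap, 8 higher and 3 lower in the knockout, against 31.9% of all genes (16.5% higher and 15.4% lower), so this share was near the background. The 95% confidence interval of the fold change lay within 1.5-fold in both directions for 30 of the 35, and for 69.2% of all genes. The exceptions were Rcan2, Nfatc2, Trem2, Itpr1 and Atp2a3. That share depends on expression level in CPM too, and the genes here were not matched to the others on that level. Per kilobase of exon they had a median percentile of 62.3, a measure that ranks long genes lower than their CPM would. All members but Rcan2 and Nfatc2 had an adjusted p of 0.99975.

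**Figure D1:**
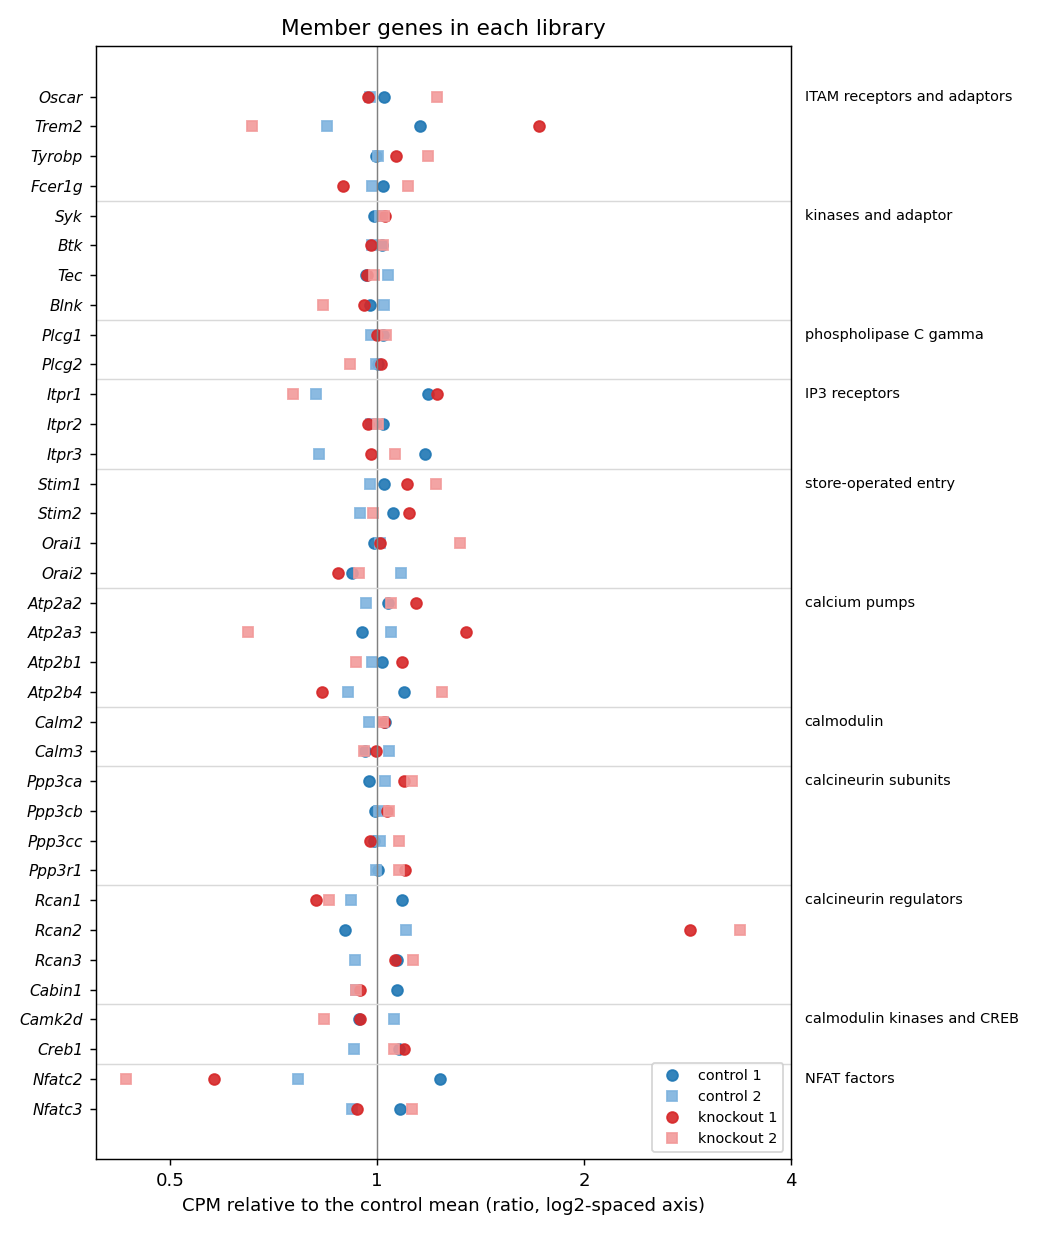
Level of each of the 35 genes in every library relative to its mean in the controls (log2 scale, horizontal axis), ordered by role, with controls in blue, knockouts in red, circles for replicate 1 and squares for replicate 2. Rcan2 stands apart on the right with both knockouts, Nfatc2 lies to the left, and Trem2, Itpr1 and Atp2a3 spread widely within a genotype.

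**Figure D2:**
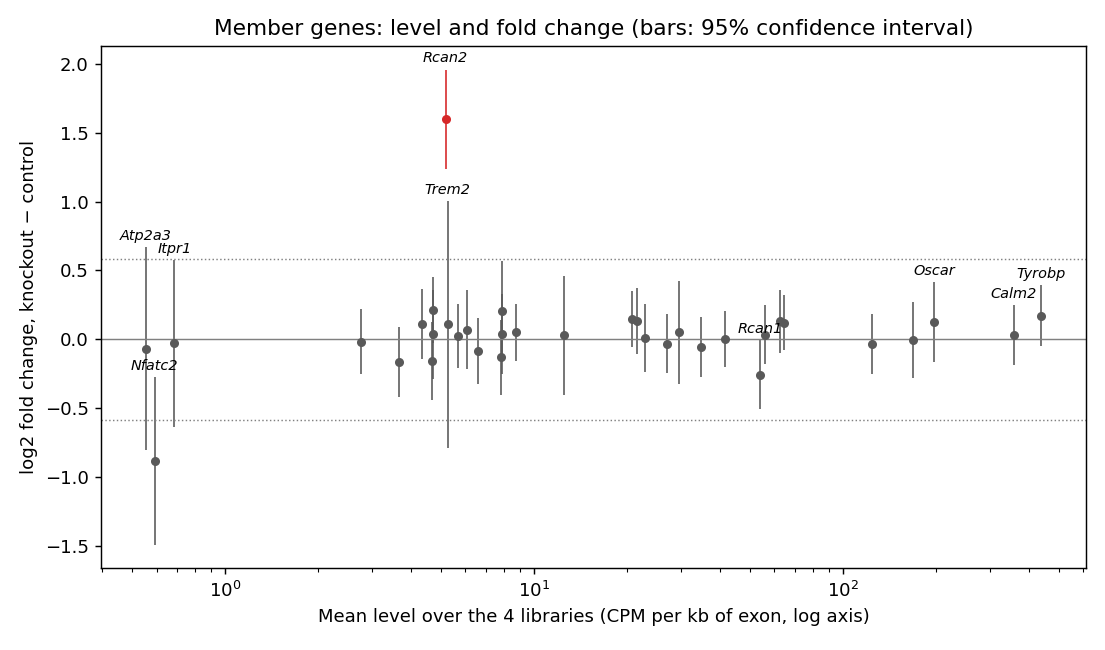
Mean level over the 4 libraries (CPM per kilobase of exon, log axis) against the log2 fold change, knockout minus control, for the 35 genes, with bars for the 95% confidence interval and dotted lines at 1.5-fold. Rcan2 (red) is the gene that passed the adjusted test, at 1.60, and the widest intervals belong to Trem2, Atp2a3, Itpr1 and Nfatc2.

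At the head of the pathway, 3 of the 4 receptors and adaptors were abundant transcripts. Tyrobp, which encodes DAP12, stood highest per length of all 35 genes at 437 CPM per kilobase of exon, above 99.5% of tested genes. Its libraries gave 273 and 275 CPM in the controls and 292 and 325 CPM in the knockouts, so that both knockouts were above both controls, with a log2 fold change of 0.17 (SE 0.09, 95% confidence interval −0.05 to 0.39) that did not pass the test. Fcer1g, which encodes FcRγ, was at 149 and 144 CPM in the controls and 131 and 163 CPM in the knockouts (log2 fold change −0.01, SE 0.12). Its controls lay between the knockouts. Oscar, the collagen receptor that pairs with FcRγ, was at 355 and 339 CPM in the controls and 337 and 425 CPM in the knockouts. Knockout 2 was high, the other 3 libraries lay close together, and the log2 fold change was 0.12 (SE 0.12).

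Trem2, which pairs with DAP12, was the least even of this group. It was at 27.5 and 20.1 CPM in the controls and 40.9 and 15.7 CPM in the knockouts, so the knockouts held both the highest and the lowest value. Its log2 fold change of 0.11 had an interval from −0.79 to 1.00. Lyz2, a macrophage lysozyme, was likewise higher in replicate 1 of each genotype. It was at 561 and 344 CPM in the controls and 655 and 360 CPM in the knockouts. The 8 macrophage markers, Lyz2 among them, summed to 3911 and 3329 CPM in the controls and 3738 and 4055 CPM in the knockouts. Their sum was thus lower in knockout 1 than in knockout 2, unlike Lyz2 and Trem2. Most of the sum came from Cd68 (1279 to 1607 CPM) and Csf1r (1201 to 1570 CPM). Both genes, and Itgam, were lower in knockout 1 than in knockout 2. Adgre1, Mertk, Cd14 and Fcgr1 were, like Lyz2 and Trem2, higher in replicate 1 of each genotype. The markers were thus divided, and the sum mainly shows the most abundant of them. The part of macrophage content in the spread of Trem2 was not tested.

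The kinases varied little among the libraries. Syk was at 514 and 524 CPM in the controls and 532 and 531 CPM in the knockouts, a log2 fold change of 0.03 (SE 0.09, 95% confidence interval −0.18 to 0.25). Its highest and lowest libraries differed 1.04-fold, as did those of Btk, a TEC-family kinase that spanned 128 to 133 CPM. Tec itself spanned 98.2 to 106 CPM, with the controls on both sides of the knockouts. Blnk, the adaptor that joins SYK to phospholipase C gamma, was lower in both knockouts (28.2 and 24.6 CPM) than in both controls (28.8 and 30.2 CPM), and its log2 fold change of −0.16 (SE 0.12) did not pass.

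Phospholipase C gamma was represented mostly by Plcg2, the form typical of haematopoietic cells. Plcg2 was at 152 and 151 CPM in the controls and 154 and 139 CPM in the knockouts (log2 fold change −0.05, SE 0.09, 95% confidence interval −0.27 to 0.16). Knockout 2 was the low library, and the groups overlapped. Per kilobase of exon, Plcg2 made up 86.1% and 86.5% of the pair in control libraries and 86.4% and 84.8% in knockout libraries. Plcg1 stayed between 43.2 and 45.5 CPM, and 4.82% of its exons overlap those of Zhx3 on the other strand. The sources used here do not state whether reads were counted by strand, and reads there may be shared.

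Among the IP3 receptors, which release calcium from the endoplasmic reticulum, Itpr3 took 88.0% to 90.4% of the family's level per kilobase of exon in the 4 libraries. Itpr3 was at 310 and 217 CPM in the controls and 258 and 280 CPM in the knockouts, so its controls differed more from each other than either did from the knockouts (log2 fold change 0.05, SE 0.16). Itpr2 stayed between 40.0 and 42.0 CPM. Itpr1 was at 14.9 and 10.3 CPM in the controls and 15.4 and 9.51 CPM in the knockouts, higher in replicate 1 of each genotype, with an interval of −0.64 to 0.57 on the log2 scale.

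Store-operated entry depends on the sensors STIM1 and STIM2 and the channels ORAI1 and ORAI2. Stim1 was at 46.2 and 44.2 CPM in the controls and 49.9 and 55.1 CPM in the knockouts, and the groups did not overlap. Its log2 fold change of 0.21 (SE 0.10, 95% confidence interval −0.03 to 0.46) had an unadjusted p of 0.0781 in limma. Stim2 spanned 28.6 to 33.7 CPM with overlapping groups. Which sensor was the more abundant depended on the gene length used: Stim1 held 41.7% to 47.7% of the pair per kilobase of all annotated exons, and 62.1% to 67.6% per kilobase of its longest transcript.

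Orai1 was at 16.6 and 16.9 CPM in the controls and 16.9 and 22.1 CPM in the knockouts, where 1 library was high (log2 fold change 0.20, SE 0.16). Orai2 was at 45.6 and 53.7 CPM in the controls and 43.5 and 46.7 CPM in the knockouts (log2 fold change −0.13, SE 0.12). Orai1 held 45.5% to 55.6% of the pair per kilobase of exon across the libraries, and 40.2% to 50.2% per kilobase of its longest transcript. The order within the pair thus depended on the library and on the length used. Orai3, a further ORAI channel that is not a member, was at 21.4 and 21.1 CPM in the controls and 24.1 and 25.3 CPM in the knockouts. Per kilobase of exon it stood at 10.7 CPM, above Orai1 at 7.90 and Orai2 at 7.80. Its log2 fold change of 0.21 (SE 0.12) did not pass.

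Calcium is returned to the store by SERCA pumps and expelled by PMCA pumps. Atp2a2, which encodes SERCA2, held at least 98.9% of the SERCA pair per kilobase of exon in each library. It was at 377 and 350 CPM in the controls and 414 and 381 CPM in the knockouts, with knockouts above controls by a narrow margin (log2 fold change 0.13, SE 0.10). Atp2a3, the SERCA3 gene, was the lowest of the 35 per length, at 0.556 CPM per kilobase and 35 to 60 reads per library, which limits its precision. Among the PMCA genes, Atp2b1 spanned 322 to 377 CPM, with the knockouts at both ends. Atp2b4 was at 165 and 137 CPM in the controls and 125 and 187 CPM in the knockouts. Its libraries were in the same order as those of Nfatc1, the master factor of the osteoclast. Nfatc1 was at 926 and 773 CPM in the controls and 736 and 1036 CPM in the knockouts. Oscar, Fcer1g and the osteoclast marker Acp5 had this order too, so it was not particular to Atp2b4. No relation between these genes was tested.

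**Figure D3:**
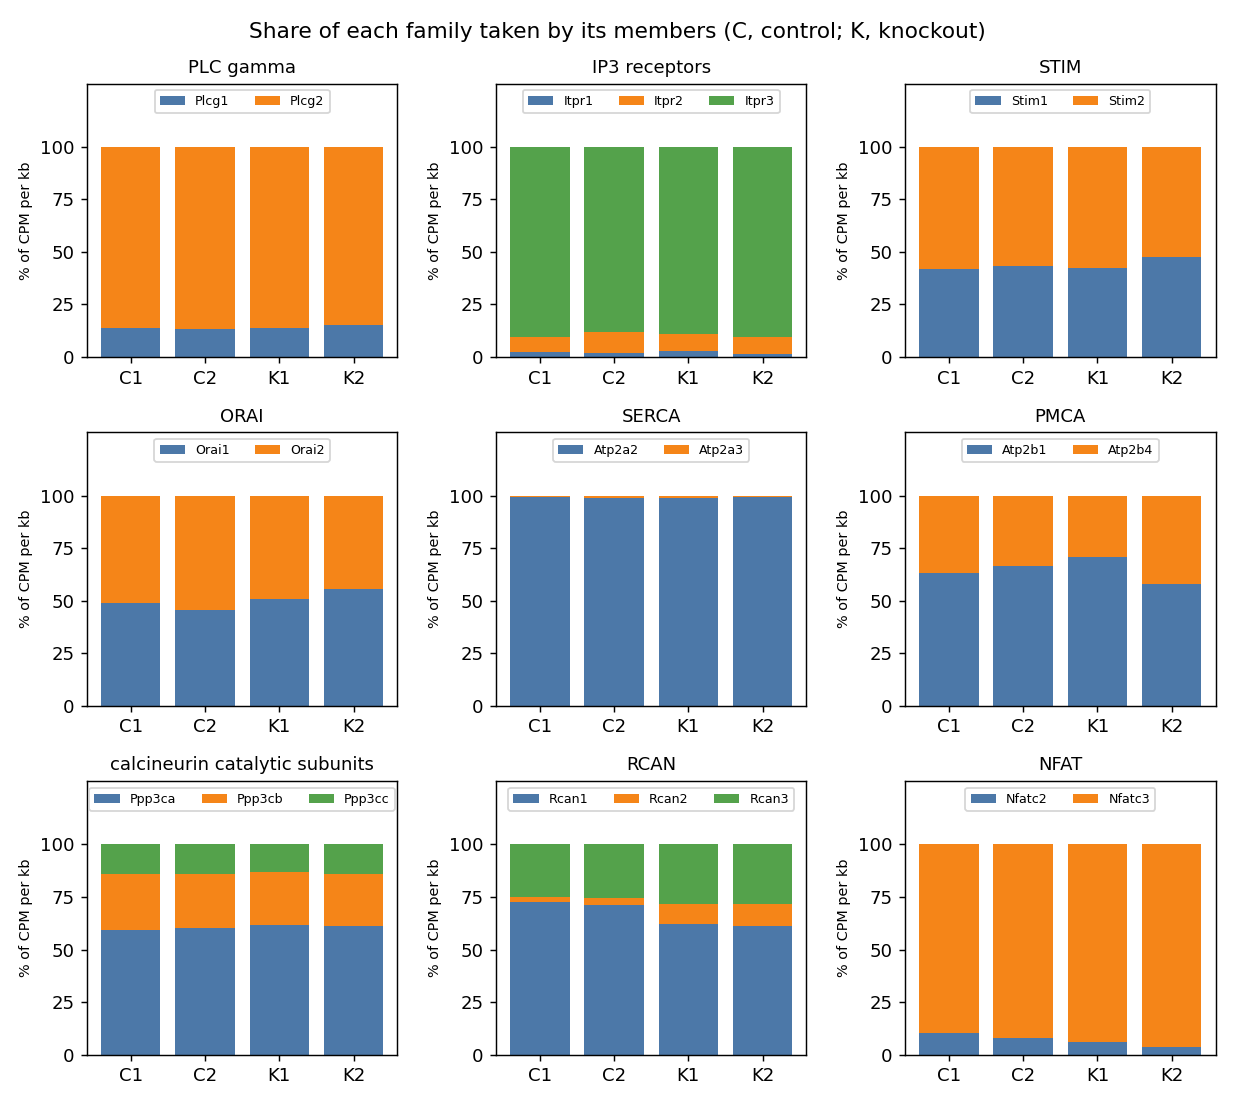
Share (%, stacked bars) that each listed member of a gene family takes of their summed level per kilobase of exon. Bars are control libraries 1 and 2 (C1, C2) and knockout libraries 1 and 2 (K1, K2). Only members enter, so the ORAI panel leaves out Orai3 and the NFAT panel leaves out Nfatc1, Nfatc4 and Nfat5. Plcg2, Itpr3 and Atp2a2 dominate their families in every library, and the share of Rcan2 is 2.57% and 3.67% in the controls against 9.36% and 10.4% in the knockouts.

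Calm2 and Calm3 encode the same calmodulin protein. Calm2 was at 531 and 503 CPM in the controls and 530 and 528 CPM in the knockouts (log2 fold change 0.03, SE 0.09, 95% confidence interval −0.18 to 0.25), and Calm3 spanned 291 to 316 CPM. In both genes the groups overlapped. Calm2 stood at 357 CPM per kilobase of exon and Calm3 at 124.

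The 4 calcineurin subunit genes all had small positive fold changes, as did 50.5% of all tested genes in sign. None passed, with unadjusted limma p from 0.131 to 0.811. Ppp3ca, the main catalytic subunit here with 59.3% to 61.6% of the catalytic level per kilobase of exon, was at 191 and 201 CPM in the controls and 214 and 221 CPM in the knockouts. Ppp3r1, the regulatory subunit, was at 200 and 199 CPM in the controls and 219 and 215 CPM in the knockouts. In both genes the knockouts lay above the controls, with log2 fold changes of 0.15 (SE 0.09, 95% confidence interval −0.06 to 0.35) and 0.12 (SE 0.09, 95% confidence interval −0.08 to 0.32). Ppp3cb was also higher in both knockouts (78.2 and 78.7 CPM) than in both controls (75.3 and 76.2 CPM). Ppp3cc spanned 13.5 to 14.9 CPM with overlapping groups. Over all tested genes, 16.5% had both knockouts above both controls. Of the exons of Ppp3r1, 14.3% overlap Wdr92 on the same strand, a gene at 15.3 CPM.

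The regulators of calcineurin were the one role group with a called gene. RCAN proteins bind calcineurin and can inhibit it. Rcan2 (ENSMUSG00000039601.16, protein-coding; chr17:43801351-44039516, plus strand, GRCm38) was at 9.87 and 12.1 CPM in the controls, from 152 and 173 reads, and at 31.4 and 37.1 CPM in the knockouts, from 476 and 682 reads. Both knockouts were well above both controls, and the libraries of a genotype lay close together. This is a log2 fold change of 1.60 (SE 0.15, 95% confidence interval 1.24 to 1.96), and the adjusted p was 0.0199 in limma, 0.0212 in edgeR and 2.89e-11 in DESeq2, and Rcan2 ranked 6 of 11781 by p. The call was lost without control 1 (log2 fold change 1.46, limma adjusted p = 0.0906) and when the variance was modelled without its trend on level (limma adjusted p = 0.147).

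Rcan1, itself a known NFAT target, was the most abundant of the family and was lower in the knockouts. It was at 196 and 166 CPM in the controls and 147 and 154 CPM in the knockouts, with no overlap. Its log2 fold change of −0.26 (SE 0.11, 95% confidence interval −0.51 to −0.01) had an unadjusted p of 0.0448 and did not pass after Benjamini-Hochberg adjustment in limma (adjusted p = 0.99975). Rcan3 was at 112 and 97.6 CPM in the controls and 112 and 119 CPM in the knockouts (log2 fold change 0.13, SE 0.10), with overlapping groups. Cabin1, a calcineurin-binding inhibitor, was at 88.1 and 76.8 CPM in the controls and 77.9 and 76.8 CPM in the knockouts, with control 1 alone at the high end.

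Within the family, the shares of all 3 members separated the genotypes, and the sum did not. The shares are parts of 1 whole, so they are not separate results. In CPM, Rcan1 and Rcan2 had groups that did not overlap, as did 31.9% of all tested genes, and those of Rcan3 overlapped. Rcan1 held 72.4% and 71.0% of the RCAN level per kilobase of exon in control libraries and 62.2% and 61.2% in knockout libraries. Rcan2 held 2.57% and 3.67% in control libraries and 9.36% and 10.4% in knockout libraries, and Rcan3 25.003% and 25.3% against 28.4% and 28.4%. The sum of the family was 87.9 and 75.6 CPM per kilobase in the controls and 76.8 and 81.7 CPM per kilobase in the knockouts, so the knockouts lay between the controls. With 2 libraries against 2, an exact permutation test of a share cannot give a 2-sided p below 0.333, so the shares are given without a test. The shares of Rcan2 were 3.30% and 10.6% on average in controls and knockouts when the longest transcript was taken as the length, against 3.12% and 9.87%.

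**Figure D4:**
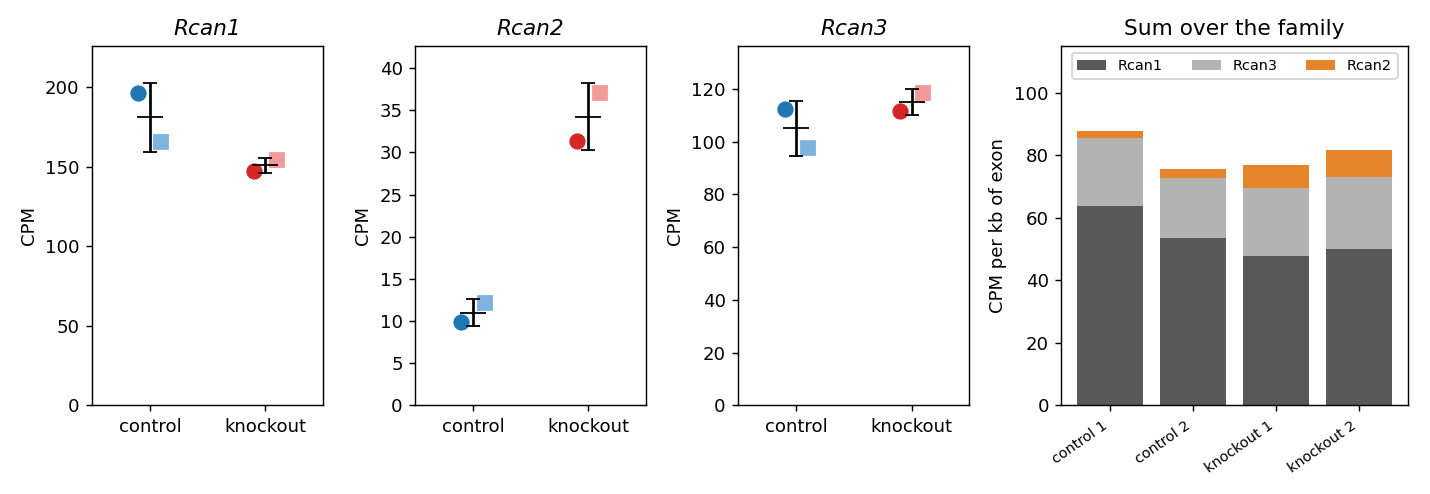
CPM of Rcan1, Rcan2 and Rcan3 in each library (circles, replicate 1; squares, replicate 2; blue, control; red, knockout; black, mean and SD, n = 2) and, at the right, the family's level summed per kilobase of exon (stacked bars). Rcan2 is near 10.99 CPM in the controls and 34.2 CPM in the knockouts, Rcan1 is lower in both knockouts, and the knockout sums lie between those of the controls.

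The windows at the annotated starts of Rcan1 and Rcan2 are shown because these genes had fold changes of opposite sign and start at several places. Each holds 250 bases before and 50 after a RefSeq start, 5′ to 3′ on the gene's strand, on GRCm38.p6, and capitals mark the NFAT core GGAAA on either strand. Rcan1 had 2 windows and Rcan2 had 3, and the values by gene do not tell which start was used. The lines below give the downstream start of Rcan1 (chr16:92400029-92400328, minus strand), then the first (chr17:43801102-43801401, plus strand) and the third start of Rcan2 (chr17:43952749-43953048, plus strand).
Rcan1 window 2: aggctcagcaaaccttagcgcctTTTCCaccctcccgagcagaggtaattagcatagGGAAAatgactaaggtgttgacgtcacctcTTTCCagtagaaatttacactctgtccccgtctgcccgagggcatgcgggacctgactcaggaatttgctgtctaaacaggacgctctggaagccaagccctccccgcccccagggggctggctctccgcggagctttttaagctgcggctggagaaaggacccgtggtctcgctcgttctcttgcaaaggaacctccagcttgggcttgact
Rcan2 window 1: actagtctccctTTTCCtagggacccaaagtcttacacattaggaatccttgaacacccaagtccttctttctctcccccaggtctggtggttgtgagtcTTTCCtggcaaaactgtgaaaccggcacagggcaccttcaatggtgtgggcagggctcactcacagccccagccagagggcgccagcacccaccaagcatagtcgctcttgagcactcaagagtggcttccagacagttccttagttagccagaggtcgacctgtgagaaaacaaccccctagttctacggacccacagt
Rcan2 window 3: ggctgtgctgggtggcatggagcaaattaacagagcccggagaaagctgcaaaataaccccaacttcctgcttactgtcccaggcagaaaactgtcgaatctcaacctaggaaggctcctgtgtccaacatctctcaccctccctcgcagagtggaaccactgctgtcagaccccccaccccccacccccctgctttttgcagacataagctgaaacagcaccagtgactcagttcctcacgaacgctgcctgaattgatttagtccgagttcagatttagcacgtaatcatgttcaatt

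The downstream window of Rcan1 held 3 NFAT cores and 1 AP-1 match (TGANTCA, either strand), and its upstream window (chr16:92466120-92466419) held neither. The first window of Rcan2 held 2 NFAT cores and no AP-1 match, the second (chr17:43801601-43801900) neither, and the third 1 AP-1 match and no NFAT core. RefSeq windows were found for 29 of the 36 genes, 36 windows in all. The NFAT core occurred in 52.8% of these, in 58.8% of the windows of tested genes and in 61.3% of all windows. The AP-1 letters occurred in 3 of the 36 windows (8.33%), in 5.17% of those of tested genes and in 7.81% of all. A core this short is thus in most windows, and a match is a description of the letters, not of a bound site.

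Genes beside Rcan2 were examined in the same fit. Within 1 Mb of its start 12 other genes were in the table and 9 were tested, of which 1 rose, none fell and 6 had an unadjusted limma p under 0.05, against 4.9% of all genes. edgeR and DESeq2 also called 1 of the 9, the same gene. It was Clic5, a chloride intracellular channel protein whose start lies 0.387 Mb downstream (chr17:44188584-44280172). Clic5 was at 18.8 and 27.1 CPM in the controls and 96.5 and 96.7 CPM in the knockouts, with a log2 fold change of 2.07 (SE 0.16) and a Benjamini-Hochberg adjusted p of 0.00729 in limma, 0.00783 in edgeR and 4.72e-27 in DESeq2.

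The other neighbours had fold changes of both signs. Pla2g7, a phospholipase that inactivates platelet-activating factor, was at 434 and 463 CPM in the controls and 565 and 638 CPM in the knockouts (limma log2 fold change 0.42, unadjusted p = 0.00429, adjusted p = 0.44). Tnfrsf21 (0.47) and Cd2ap (0.26) had positive log2 fold changes, and Adgrf5 (−0.45), 1700071M16Rik (−0.74), Enpp4 (−0.44), Supt3 (−0.23) and Enpp5 (−0.10) negative ones. None of these passed after adjustment. The median log2 fold change of the 9 was −0.10.

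**Figure D5:**
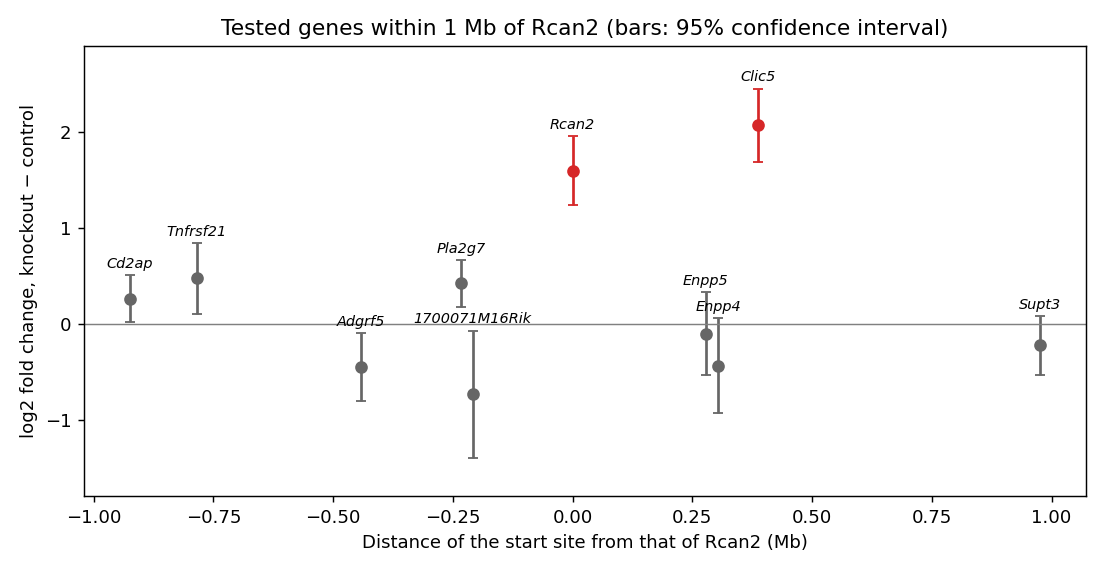
Distance of the start of each tested neighbour from that of Rcan2 (Mb, horizontal axis) against its log2 fold change, knockout minus control, with bars for the 95% confidence interval and called genes in red. Rcan2 at 1.60 and Clic5 at 2.07 stand above the other neighbours, which lie between −0.74 and 0.47.

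Downstream of calcineurin, Nfatc2 showed the lowest fold change of the 35 genes. Nfatc2 (ENSMUSG00000027544.16, protein-coding; chr2:168476410-168601657, minus strand, GRCm38), a calcineurin-dependent NFAT factor that acts early in osteoclast induction, was at 10.3 and 6.37 CPM in the controls, from 158 and 91 reads, and at 4.82 and 3.59 CPM in the knockouts, from 73 and 66 reads. Both knockouts lay below both controls, but the controls also differed 1.61-fold from each other. This is a log2 fold change of −0.88 (SE 0.26, 95% confidence interval −1.49 to −0.27), and the test gave an unadjusted limma p of 0.0105 and adjusted p of 0.697 in limma, 0.664 in edgeR and 0.582 in DESeq2. Leaving out 1 library at a time gave log2 fold changes from −1.21 to −0.56. Per length Nfatc2 stood above 10.1% of tested genes, at 0.592 CPM per kilobase of exon. The stromal markers were also lower in the knockouts, with a median log2 fold change of −0.58, 12 of 13 negative, and their part in the values of Nfatc2 and Rcan1 was not tested.

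Nfatc3 was at 98.7 and 84.1 CPM in the controls and 85.4 and 103 CPM in the knockouts (log2 fold change 0.04, SE 0.13, 95% confidence interval −0.25 to 0.33), with overlapping groups. It held 89.7% to 96.3% of the level of the pair with Nfatc2 per kilobase of exon. Nfatc1, outside that pair, stood at 116 CPM per kilobase of exon, and Nfatc3 at 7.90. Creb1, a calcium-responsive transcription factor, was at 62.0 and 53.3 CPM in the controls and 63.0 and 61.0 CPM in the knockouts (log2 fold change 0.11, SE 0.11), where control 2 was the low library. Camk2d, a calmodulin-dependent kinase, spanned 72.6 to 91.8 CPM with overlapping groups (log2 fold change −0.17, SE 0.11).

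Other genes of the pathway, in 5 lists of 128 genes, added no called gene. Of the 102 tested, none rose or fell at an adjusted p under 0.05 in limma, edgeR or DESeq2, which called 0.161%, 0.161% and 0.56% of all genes, so no call among 102 genes is near the background. Of the 102, 5 had an unadjusted limma p under 0.05, 3 higher and 2 lower, against 4.9% of all genes. Their median log2 fold change was 0.015. Without knockout 1, limma called 1 of the 102, Atp2c1, as higher.

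None of the 12 tested receptors and adaptors listed around ITAM signalling, not all of them ITAM-linked, had an unadjusted limma p under 0.05. The smallest was that of Siglec15, a DAP12-linked receptor of osteoclasts, at 171 and 145 CPM in the controls and 162 and 203 CPM in the knockouts (unadjusted limma p of 0.169). Fcgr1, the high-affinity IgG receptor, and Cd300ld, an FcRγ-linked receptor, followed with log2 fold changes of −0.26 and 0.40. Among 24 kinases, adaptors and phosphatases 1 passed that threshold: Fyn, a Src-family kinase, was at 28.8 and 26.2 CPM in the controls and 21.6 and 21.9 CPM in the knockouts (unadjusted limma p of 0.0247). Vav3, a signalling protein downstream of SYK, had a log2 fold change of 0.20, and Ptpn22, a phosphatase that acts on Src- and SYK-family kinases, one of −0.14.

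The 28 other calcium channels and pumps held 3 of the 5. Tpcn2, an endolysosomal cation channel, was at 29.6 and 29.9 CPM in the controls and 23.3 and 20.0 CPM in the knockouts (unadjusted limma p of 0.00755). Atp2c1, the Golgi calcium and manganese pump, was at 386 and 397 CPM in the controls and 468 and 642 CPM in the knockouts (unadjusted limma p of 0.0125). Saraf, which turns off store-operated entry, was at 102 and 102 CPM in the controls and 120 and 122 CPM in the knockouts (unadjusted limma p of 0.0252). None of these 3 passed after adjustment.

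The 25 other calcineurin, calmodulin kinase, CREB and NFAT genes held none. The smallest p was that of Nfatc4, at 4.81 and 3.78 CPM in the controls and 3.37 and 2.01 CPM in the knockouts (unadjusted limma p of 0.0565), followed by Crebbp, a coactivator of CREB, and Homer3, a scaffold protein, with log2 fold changes of −0.23 and 0.14. Of 13 NFAT target genes of the osteoclast, 1 had an unadjusted p under 0.05. Dcstamp, a membrane protein needed for precursor fusion, was at 666 and 649 CPM in the controls and 838 and 877 CPM in the knockouts (log2 fold change 0.38, SE 0.10, unadjusted limma p of 0.00512, adjusted p = 0.475). Car2, a carbonic anhydrase, had a log2 fold change of 0.19 and Calcr, the calcitonin receptor, one of −0.14, and neither had an unadjusted p under 0.05.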

How the data were processed

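The authors deposited 1 table of normalised signal per gene and library. Its 12799 genes have values that are whole multiples of 1 read: whole reads were recovered for 100% of values within a tolerance of 0.001 reads, and the deposited signal was read as CPM on a scaled library size. Per the submitters' processing notes, which give no versions, the tools were edgeR, STAR and featureCounts of Subread, and the build mm10; the sources used here state neither the strand setting nor the annotation release. Positions and exon lengths came from GENCODE release M21 on GRCm38.

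Genes that reached 1 CPM in at least 2 libraries were tested for genotype alone by limma (2-sided, variance trended on level) on log2(CPM + 0.5), a scale that understates folds of low genes. P-values were adjusted by the Benjamini-Hochberg method. Residual degrees of freedom were 7.52 after moderation. The labels do not say which animals gave each library, so p-values measure the spread between these libraries. edgeR and DESeq2 on recovered reads, other pseudocounts, filters, scalings and variance models, a replicate block and each library left out were alternatives. The limma steps were tested on simulated data with known folds. Of genes set to differ 1.5-fold, 24.2% of 66 were called. At 2-fold 66.7% of 63 were called, and at 4-fold 90.5% of 63. Of unchanged genes, 0.0698% were called. A gene that did not pass can thus still differ between the genotypes.

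The members and lists were chosen with earlier results of these data known. Named in full were members with an adjusted or unadjusted p under 0.05 or a log2 fold change of 0.5 or more in size, the most abundant per kilobase of each role, and Rcan1 to Rcan3, Tyrobp, Fcer1g, Oscar, Trem2, Syk, Plcg2, Ppp3ca, Nfatc2 and Nfatc3. Of other lists, called genes and up to 3 with the smallest p were named, with tested genes within 1 Mb of a called member. Fits ran in R 4.3.3 with DESeq2 1.42.0, edgeR 4.0.16 and limma 3.58.1, and tables and plots in Python 3.11.15 with matplotlib 3.10.9, pandas 2.3.3, SciPy 1.17.1 and NumPy 2.4.6.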

Additional observations from a re-analysis of the deposited data

How the results depend on the processing

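The direction of Rcan2 held under every alternative run, with log2 fold changes of 1.46 to 1.74 when 1 library was left out, and its call was lost without the intensity trend (0 members called higher) and without control replicate 1 (0 to 1 over the left-out libraries). Over the whole table, 5 genes were called higher and 14 lower. The counts were 2 higher and 2 lower without the intensity trend, 10 and 56 with DESeq2, and 2 to 16 and 4 to 60 with 1 library left out. Where a genotype is left with 1 library, its spread is assumed to be that of the other. Of the other pathway genes, 0 to 1 were called higher with 1 library left out. The median over the members then ranged from −0.0085 to 0.0518. The cause was not tested.

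With the replicate number as a block, 18 genes were called higher and 71 lower, and Rcan2 had a limma adjusted p of 1.30e-06 with 1 residual degree of freedom before moderation. The deviations of same-numbered libraries from their group means correlated at −0.0016 across 11781 genes. This correlation over all genes cannot settle whether same-numbered libraries were paired, since a pattern shared by part of the genes could be missed. The labels give no pairing. No member other than Rcan2 was called under the block.

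Members with fold changes near 0 changed sign. Without composition scaling the log2 fold changes were −0.0234 for Btk, −0.0013 for Plcg1 and −0.0147 for Atp2b1. For Btk edgeR gave −0.0021 and DESeq2 −0.0029. With 1 library left out, the log2 fold change ranged for Oscar from −0.0438 to 0.29, Trem2 from −0.57 to 0.78, Fcer1g from −0.16 to 0.15, Btk from −0.0276 to 0.0284, Tec from −0.085 to 0.0207, Plcg1 from −0.00698 to 0.0518, Plcg2 from −0.13 to 0.0191, Itpr1 from −0.37 to 0.30, Itpr2 from −0.0451 to 0.0091, Itpr3 from −0.21 to 0.31, Stim2 from −0.0164 to 0.15, Atp2a3 from −0.51 to 0.38, Atp2b1 from −0.10 to 0.12, Atp2b4 from −0.26 to 0.32, Calm2 from −0.00594 to 0.0717, Calm3 from −0.0914 to 0.0236, Ppp3cc from −0.0327 to 0.10, Cabin1 from −0.19 to 0.0109 and Nfatc3 from −0.0927 to 0.17. A filter of 5 CPM left out Atp2a3.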
